A study of Rattus norvegicus with 8 samples.

Results

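Pineal glands of Sprague-Dawley rats at postnatal day 20 (P20) were compared with glands at postnatal day 5 (P5), to describe how the transcriptome of the gland changes as it matures after birth. The comparison used 4 of the 8 libraries of the series, 1 for each age and time of day. At P5, 17 animals were pooled for the mid-day library (zeitgeber time 7) and 19 for the mid-night library (zeitgeber time 19), and at P20 13 and 10. All animals were kept under 14 h of light and 10 h of dark, and the labels name no treatment or genetic change. The other 4 libraries, from embryonic day 21 (E21) and postnatal day 40 (P40), entered the fit to estimate the spread and are quoted for their levels. Members of the comparison were the 9960 of 16932 transcripts with at least 1 FPKM (the fragments of a transcript relative to its length and to all mapped fragments, the authors' unit) in at least 2 of the 8 libraries. Each age and time has 1 pool, so no spread among animals or among repeated pools could be measured. The p-values reflect how far the libraries depart from age plus 1 night effect common to all ages.

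The pineal gland makes melatonin at night. Its main cell, the pinealocyte, is related to the photoreceptors of the retina and expresses many of their genes under the homeobox factors Otx2 and Crx. In the adult rat, noradrenaline released from sympathetic nerve endings at night raises cyclic AMP in the pinealocyte and with it the expression of Aanat, the acetyltransferase that controls the rhythm of melatonin. The sympathetic innervation and the large daily rhythm of the rat gland develop after birth, while cell division in the gland comes to an end.

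The 4 libraries carried the defining genes of the gland. Tph1, which encodes the tryptophan hydroxylase of the gland, stood at 2316 and 1740 FPKM at P5 (mid-day and mid-night, the order used throughout) and at 2350 and 1930 FPKM at P20. Crx lay at 152 and 122 FPKM at P5 and at 104 and 180 FPKM at P20. From 8598 to 9533 transcripts reached 1 FPKM in these 4 libraries. Their depth was estimated roughly, from the lowest non-zero values of short olfactory receptor genes (23 to 26 such genes a library), taken as single fragments. It came to 0.42 to 0.99 of the deepest library of the series, lowest for P20 mid-day. One library stood apart. The 29 markers of choroid plexus epithelium, the tissue that secretes cerebrospinal fluid and lies near the gland, summed to 18610 FPKM in the P5 mid-night library, against 3297 FPKM at P5 mid-day and 677.5 and 858.7 FPKM at P20. Most of that sum was 1 gene, Ttr. In such bulk libraries fewer cells of a type and less RNA per cell cannot be told apart. Results for the falls are therefore given with the values of both P5 libraries.

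More transcripts were lower at P20 than were higher. With limma on log2(FPKM + 1), and age and time of day in the fit, 699 of 9960 transcripts (7.02%) differed at a Benjamini-Hochberg adjusted p under 0.05. Of these 102 (1.02%) rose and 597 (5.99%) fell. Among them 73 rose and 431 fell by at least 2-fold on the log2(FPKM + 1) scale, which understates changes of low transcripts. Without regard to the test, both P20 libraries lay above both P5 libraries for 1123 transcripts (11.3%) and below both for 4119 (41.4%). The median change of all transcripts tested was -0.18 on the log2 scale, and scaling the libraries to a common distribution (quantile normalization) moved it to 0.03 and the counts to 219 that rose and 313 that fell. Centring each library on its median gave 173 and 325. The medians of gene lists have -0.18 as their background, and their counts have 1.02% that rose and 5.99% that fell.

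At a single time of day there is 1 library for each age and no test. At mid-day 182 transcripts (1.83%) were at least 2-fold higher at P20 and 419 (4.21%) at least 2-fold lower. At mid-night the counts were 197 (1.98%) and 966 (9.7%). At both times 55 transcripts were at least 2-fold higher and 273 at least 2-fold lower. The number of transcripts past the test depended on the P5 and P20 mid-night libraries. Without P5 mid-night 58 passed (12 rose, 46 fell), without P20 mid-night 50 (20 and 30), without P20 mid-day 190 (38 and 152) and without P5 mid-day 417 (35 and 382). In these fits the single library left at an age was assumed to vary like the other ages. All transcripts past the main test had both P20 libraries on 1 side of both P5 libraries. A change of direction in an alternative setting was therefore unlikely from the start. No named gene past the test changed direction in any of 19 alternative settings, and 22 of 109 passed in all 19.

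**Figure D1:**
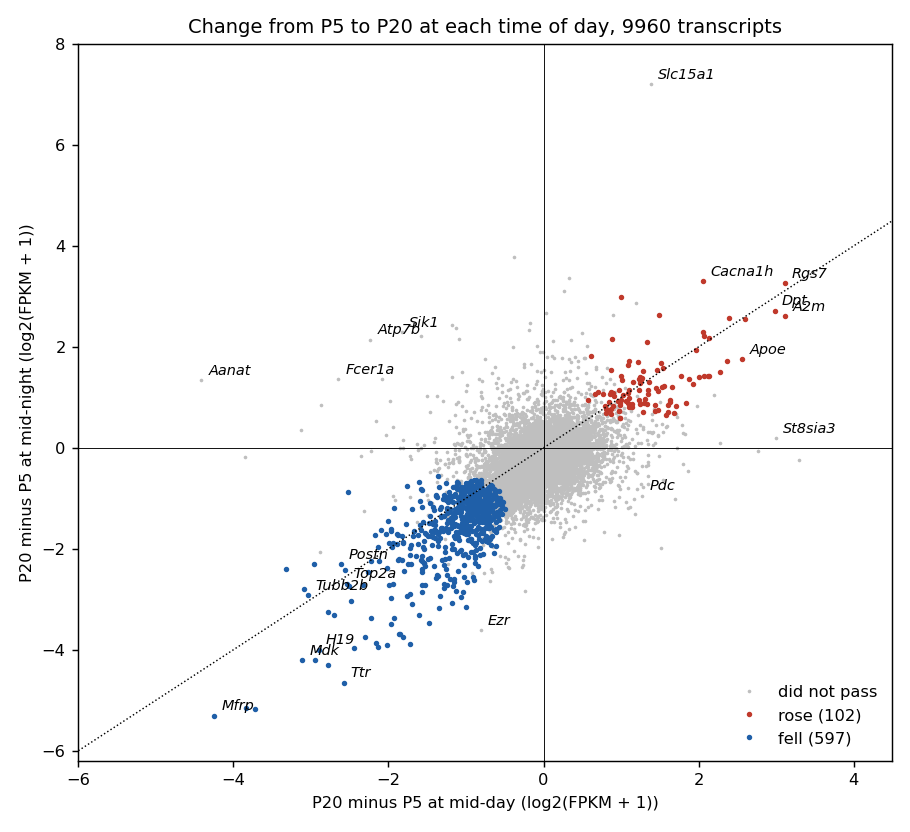
Each point is 1 of 9960 transcripts, with the P20 minus P5 difference of log2(FPKM + 1) at mid-day on the horizontal axis and at mid-night on the vertical axis. The 102 transcripts that rose (red) and the 597 that fell (blue) changed the same way at both times. Their distance from the dotted line of equal change varied, and Ttr changed by -2.58 by day and -4.66 by night. Slc15a1, Aanat, Atp7b, Sik1 and Fcer1a lie far above the line and did not pass the test.

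None of the 11 genes of melatonin synthesis and its cofactor supply passed the test, and their median change was 0.09. Asmt, which encodes the last enzyme of the pathway, was at 106 and 109 FPKM at P5 and at 204 and 206 FPKM at P20. Both P20 libraries lay above both P5 libraries, and the log2 change of 0.92 ± 0.24 (SE) missed the threshold (limma adjusted p = 0.0613). With quantile normalization 1 of the 11 genes rose, and with separate night effects for the younger and older ages 1 fell, Aanat (limma adjusted p = 0.0133). Ddc, which encodes the decarboxylase that forms serotonin, was at 159 and 128 FPKM at P5 and 131 and 205 FPKM at P20, with overlapping groups. Gch1, which encodes the first enzyme of tetrahydrobiopterin synthesis, was at 46.9 and 41.2 FPKM at P5 and at 77.4 and 32.4 FPKM at P20, again overlapping. Pcbd1, which encodes an enzyme that recycles the same cofactor, was at 57.5 and 57.9 FPKM at P5 and 64.4 and 71.1 FPKM at P20. The change of Aanat depended on the time of day and is described with the night genes.

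Genes of phototransduction and of photoreceptor structure moved in both directions. Of 43 tested, 5 rose (11.63%) and 6 fell (13.95%), against 1.02% and 5.99% of all transcripts. The median change was 0.09. Those that rose included Grk1, the kinase that shuts off opsins, at 22.8 and 20.0 FPKM at P5 and 54.6 and 53.1 FPKM at P20 (log2 change 1.30 ± 0.17 SE, limma adjusted p = 0.00735). Guca1a, an activator of retinal guanylate cyclase, went from 8.78 and 9.06 FPKM to 46.5 and 27.4 FPKM, and Slc24a1, the rod sodium, potassium and calcium exchanger, from 10.4 and 9.01 FPKM to 25.6 and 31.5 FPKM. Cabp4, a calcium-binding protein of photoreceptor synapses, went from 4.42 and 2.57 FPKM to 22.8 and 8.52 FPKM. Arr3, the cone arrestin, went from 0.068 and 0.226 FPKM to 3.06 and 1.95 FPKM.

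The 6 that fell included Gnat1 and Rcvrn, at low levels at both ages. Genes typical of rods moved both ways, since Slc24a1 rose while Gnat1 fell. Gnat1, the rod transducin, went from 2.69 and 3.38 FPKM to 0.856 and 0.767 FPKM, and Rcvrn, recoverin, from 2.37 and 4.15 FPKM to 0.825 and 1.33 FPKM. Prom1, a protein of membrane protrusions, went from 5.81 and 7.52 FPKM to 0.951 and 0.558 FPKM, Abca4 from 1.92 and 3.90 FPKM to 0.627 and 0.651 FPKM, and Rlbp1 from 18.2 and 16.3 FPKM to 11.6 and 4.66 FPKM. Prom1 has 2 transcripts, of which 1 is given. The most abundant transducin subunits did not pass. Gnat2, the cone transducin, was at 630 and 494 FPKM at P5 and at 576 and 527 FPKM at P20, and Gnb3 at 523 and 462 FPKM and then 525 and 545 FPKM. Without P5 mid-night 0 members rose and 2 fell, without P20 mid-night 2 and 1, without P20 mid-day 2 and 3, and without P5 mid-day 3 and 5.

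The regulators of the pinealocyte programme mostly did not pass. Of 15 transcription factors tested, 2 fell (13.33%, against 5.99% of all transcripts) and none rose. Lhx9, a LIM homeobox factor of the early gland, went from 4.88 and 4.06 FPKM to 0.501 and 0.652 FPKM (log2 change -1.79 ± 0.25 SE, limma adjusted p = 0.00925). Nrl, a rod factor, went from 0.851 and 1.58 FPKM to 0.147 and 0.232 FPKM, just past the threshold (limma adjusted p = 0.0499). Otx2 was at 173 and 176 FPKM at P5 and at 136 and 185 FPKM at P20, and Neurod1 at 136 and 104 FPKM and then 104 and 91.6 FPKM. Neither Lhx9 nor Nrl passed without P5 mid-night, without P20 mid-night or without P20 mid-day.

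The promoters of the phototransduction genes were searched for TAATCC, the core bound by CRX and OTX factors, on both strands. Of 39 promoters matched in RefSeq (250 bases before to 50 bases after the start, build GRCr8), 13 (33.33%) held it, against 7.109% of 27457 promoters in the table and 5.433% of those of transcripts tested. Promoters were found for 4 members that rose and 3 that fell, and the core stood within 150 bases before the start in 2 and 1 of these. The 3 windows are shown with the core in capitals to let it be seen in members that moved in opposite directions. The sequences run 5′ to 3′ toward the start.
Guca1a (GRCr8 chr9:21086492-21086641, plus strand): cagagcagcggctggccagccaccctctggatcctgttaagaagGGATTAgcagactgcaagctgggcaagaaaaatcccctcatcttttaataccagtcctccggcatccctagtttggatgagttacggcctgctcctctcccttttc
Cabp4 (GRCr8 chr1:210862633-210862782, minus strand): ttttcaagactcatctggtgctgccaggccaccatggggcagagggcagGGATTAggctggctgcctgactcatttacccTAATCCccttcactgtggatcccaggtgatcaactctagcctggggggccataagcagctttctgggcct
Abca4 (GRCr8 chr2:212849335-212849484, plus strand): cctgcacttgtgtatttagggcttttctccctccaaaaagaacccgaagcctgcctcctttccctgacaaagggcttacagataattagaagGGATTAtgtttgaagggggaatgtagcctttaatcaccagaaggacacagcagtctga
Guca1a and Cabp4 rose and Abca4 fell. Cabp4 holds the core on each strand, and Guca1a and Abca4 hold it once, as GGATTA. The match describes the sequence only.

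The 15 largest rises that passed, among transcripts with at least 5 FPKM in 2 of the 4 libraries, came from several functions. Signalling genes of excitable cells were among them. Rgs7, a regulator of G protein signalling (rn4 chr13:90732428-91211520), had the largest change. It stood at 2.65 and 2.20 FPKM at P5, at 30.4 and 29.6 FPKM at P20 and at 39.3 and 23.9 FPKM at P40 (log2 change 3.18 ± 0.21 SE, limma adjusted p = 0.00104), and at E21 it was at 0.456 and 0.342 FPKM. Cacna1h, a T-type calcium channel, went from 0.628 and 0.736 FPKM to 5.76 and 16.1 FPKM (2.68 ± 0.29, limma adjusted p = 0.00424). Trpm1, a cation channel known from retinal bipolar cells and melanocytes, went from 9.69 and 10.3 FPKM to 38.1 and 28.1 FPKM for 1 of its 2 transcripts. Penk, the precursor of enkephalins, went from 3.43 and 2.64 FPKM to 10.2 and 14.6 FPKM. Rgs7 passed in all 19 alternatives, while Trpm1 lost its call without P5 mid-night (limma adjusted p = 0.0938) and Penk without P5 mid-night, P20 mid-day or P20 mid-night.

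The voltage-gated channels and the other G protein regulators were mixed. Of 31 channel genes tested 2 rose and 2 fell (6.452% each). Of 16 genes of the RGS family 1 rose, Rgs7 (6.25%), and 2 fell (12.5%). Over all transcripts 1.02% rose and 5.99% fell, and the falls among channel genes lay near that share. Rgs4 went from 8.18 and 7.41 FPKM to 3.08 and 2.27 FPKM and Rgs12 from 2.46 and 3.02 FPKM to 0.674 and 0.506 FPKM. Cacna2d4, a calcium channel subunit of photoreceptors, went from 20.1 and 14.1 FPKM to 38.7 and 29.7 FPKM. Of 34 genes of synaptic vesicles, exocytosis and ribbons, 1 rose and 1 fell (2.941% each). Syt1, the calcium sensor of exocytosis, went from 57.3 and 55.0 FPKM to 108 and 98.2 FPKM (log2 change 0.86 ± 0.19 SE, limma adjusted p = 0.0357), and Pcsk2, a prohormone convertase, from 1.65 and 1.40 FPKM to 0.108 and 0.178 FPKM. Cplx4, a complexin of ribbon synapses, was at 51.0 and 35.5 FPKM at P5 and 81.3 and 82.9 FPKM at P20 and did not pass (limma adjusted p = 0.0645). Rgs4, Cacna2d4, Syt1 and Pcsk2 lost their call without any 1 of the 4 P5 and P20 libraries, Rgs12 in 3 of these 4 fits and Cacna1h without P5 mid-night (limma adjusted p = 0.0573).

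Secreted proteins and genes known from glia made up much of the rest. A2m, a protease inhibitor (rn4 chr4:158103710-158153423), went from 11.2 and 15.4 FPKM to 105 and 99.0 FPKM (log2 change 2.86 ± 0.21 SE, limma adjusted p = 0.00116), and reached 156 and 156 FPKM at P40. Apoe, the lipid carrier made by astrocytes and other glia, went from 103 and 114 FPKM to 612 and 388 FPKM (2.16 ± 0.27, limma adjusted p = 0.00617). Cp, the copper-binding ferroxidase ceruloplasmin, went from 6.90 and 8.56 FPKM to 33.6 and 42.0 FPKM. Dpt, dermatopontin, went from 1.18 and 1.47 FPKM to 16.2 and 15.2 FPKM and was the only 1 of 47 matrix genes tested to rise. Agt, angiotensinogen, went from 3.15 and 2.59 FPKM to 10.9 and 10.5 FPKM. Car3, Aox1 and the chemokine Ccl19 rose by log2 changes of 2.49, 2.14 and 2.18.

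Of 16 astrocyte and interstitial glia markers 2 rose (12.5%, against 1.02% of all transcripts), Apoe and Mlc1, and none fell. The median change was 0.45, with 0.31 by day and 0.09 by night, and 0.25 to 0.29 without any 1 of the 4 libraries. Mlc1, a membrane protein of astrocyte endfeet, went from 2.66 and 3.33 FPKM to 7.11 and 6.96 FPKM. Gja1, a gap junction protein, was at 37.4 and 44.1 FPKM at P5 and 80.6 and 60.3 FPKM at P20 and did not pass (limma adjusted p = 0.0925). The summed level of the list was 365.4 and 479.4 FPKM at P5 and 1056 and 752.2 FPKM at P20. Apoe alone held 103 and 114 FPKM of these sums at P5 and 612 and 388 FPKM at P20. By night the rise of the sum was that of Apoe. Mlc1 lost its call without any 1 of the 4 libraries, and Apoe without P5 mid-night (limma adjusted p = 0.0628).

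Some MHC and antigen processing genes rose from low levels. Of 24 in that list tested, 5 rose (20.83%) and 1 fell (4.167%), against 1.02% and 5.99% of all transcripts. The median change was 0.28. Cd74, the invariant chain, went from 1.74 and 4.29 FPKM to 10.5 and 13.2 FPKM (log2 change 1.75 ± 0.27 SE, limma adjusted p = 0.0123), and was at 19.1 and 20.7 FPKM at P40. RT1-Da went from 0.836 and 2.03 FPKM to 4.01 and 5.85 FPKM and RT1-Ba from 0.848 and 1.16 FPKM to 3.38 and 4.68 FPKM. These class II genes belong to a family of related genes, so their values are uncertain. Ctss, the protease that trims the invariant chain, went from 1.38 and 2.46 FPKM to 5.10 and 7.52 FPKM, and RT1-Db1 from 0.377 and 0.535 FPKM to 2.22 and 2.40 FPKM. Ifi30, a lysosomal thiol reductase, fell from 5.91 and 7.17 FPKM to 3.31 and 2.67 FPKM.

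B2m, which pairs with class I heavy chains, was at 75.9 and 60.4 FPKM at P5 and 104 and 75.6 FPKM at P20 and did not pass. Of 39 interferon response genes 2 rose (5.128%, against 1.02% of all transcripts) and none fell, with a median of 0.37. Irf7, an interferon regulatory factor, went from 2.63 and 3.16 FPKM to 6.25 and 10.2 FPKM, and Mx2 from 0.0537 and 0.266 FPKM to 1.10 and 9.04 FPKM. Of 17 microglia and macrophage markers 1 rose, C1qa, from 2.28 and 4.79 FPKM to 7.13 and 10.4 FPKM, a call lost without any 1 of the 4 libraries. Csf1r, a receptor of these cells, was at 8.04 and 8.47 FPKM at P5 and 11.5 and 6.71 FPKM at P20, and the summed list at 114.6 and 120.6 FPKM and then 133.3 and 143.7 FPKM. Of the MHC list 2 members rose without P5 mid-day or without P20 mid-day, 1 without P5 mid-night and 0 without P20 mid-night. With quantile normalization 8 rose and none fell. Of the interferon list 4 rose without P20 mid-day and 0 without any other of the 4 libraries.

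**Figure D2:**
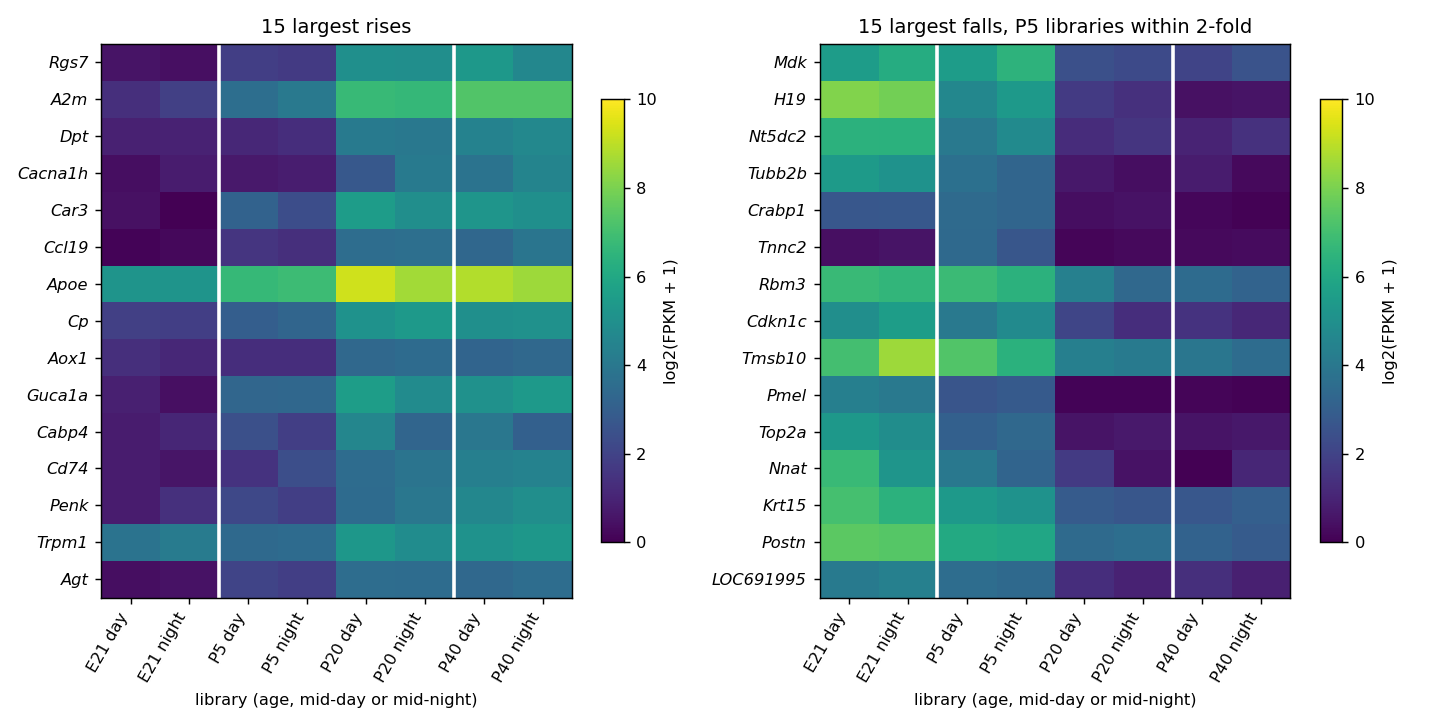
Levels as log2(FPKM + 1) in all 8 libraries (columns, by age and time of day) of the 15 largest rises (left) and of the 15 largest falls among transcripts whose P5 libraries lay within 2-fold (right). Rgs7 is high in both P20 and both P40 libraries (30.4 and 29.6 FPKM at P20), and H19 is highest at E21 and lower at each later age.

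Genes of DNA replication and mitosis fell as a group. Of 50 tested, 33 fell and none rose, against 5.99% of all transcripts, and all 50 had a negative change (49 with quantile normalization), with a median of -1.18. Top2a, the topoisomerase of dividing cells (rn4 chr10:87771336-87800962), was at 7.38 and 9.40 FPKM at P5 and at 0.440 and 0.611 FPKM at P20 (log2 change -2.62 ± 0.22 SE, limma adjusted p = 0.00166). It had been at 39.1 and 29.2 FPKM at E21. Cdk1, the mitotic kinase, went from 7.21 and 8.51 FPKM to 1.06 and 0.437 FPKM (-2.36 ± 0.24, limma adjusted p = 0.00332). Both P20 libraries were below both P5 libraries for 48 of the 50 genes, against 41.4% of all transcripts.

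Members were at different levels at P20. Mitotic genes such as Ccnb1, a cyclin, with 5.05 and 5.55 FPKM at P5 and 1.20 and 0.438 FPKM at P20, and Cdc20, an activator of the anaphase-promoting complex, with 5.05 and 6.28 FPKM and then 0.797 and 0.474 FPKM, were near or under 1 FPKM at P20. Of the helicase subunits that open DNA for replication, Mcm6 went from 5.02 and 5.71 FPKM to 2.16 and 1.30 FPKM and Mcm7 from 5.54 and 5.47 FPKM to 2.59 and 1.41 FPKM. Mcm4 was at 4.05 and 4.55 FPKM at P5 and at 3.21 and 3.90 FPKM at P20 and did not pass. Other members that did not pass were abundant at both ages. Ccnd2, a cyclin of the first phase of the cycle, was at 46.1 and 49.0 FPKM at P5 and 27.9 and 38.4 FPKM at P20, and Rrm1, a subunit of ribonucleotide reductase, at 19.4 and 23.6 FPKM and then 21.3 and 16.6 FPKM. Without P5 mid-day 24 members fell, without P20 mid-day 15, without P5 mid-night 7 and without P20 mid-night 5. The median of the list lay between -1.09 and -1.43 in these 4 fits.

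Promoters of late cell-cycle genes are known to carry a cell-cycle homology region (CHR, TTTGAA) together with CCAAT boxes. Through the CHR these genes are repressed in resting cells. Of 38 promoters matched for the list, 17 (44.74%) held TTTGAA and 27 (71.05%) held CCAAT on either strand, and 14 (36.84%) held both. Of all 27457 promoters the shares were 18.07%, 37.74% and 7.251%, and of those of transcripts tested 11.03%, 38.42% and 4.671%. Among the 26 matched members that fell, 12 (46.15%), 18 (69.23%) and 9 (34.62%) held TTTGAA, the CCAAT box and both together. The 5 members that fell and held both within 150 bases before the start are shown, with the letters of both motifs in capitals on either strand (TTCAAA and ATTGG on the reverse). The sequences are those of RefSeq, 5′ to 3′ toward the start.
Top2a (GRCr8 chr10:84473094-84473243, minus strand): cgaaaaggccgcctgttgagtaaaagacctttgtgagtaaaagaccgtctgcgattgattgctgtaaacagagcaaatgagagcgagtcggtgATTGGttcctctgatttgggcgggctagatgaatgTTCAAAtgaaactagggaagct
Cdk1 (GRCr8 chr20:19265143-19265292, plus strand): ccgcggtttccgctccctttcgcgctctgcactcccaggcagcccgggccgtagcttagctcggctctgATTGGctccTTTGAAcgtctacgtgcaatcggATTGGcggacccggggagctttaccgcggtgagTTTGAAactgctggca
Cdc20 (GRCr8 chr5:137255800-137255949, minus strand): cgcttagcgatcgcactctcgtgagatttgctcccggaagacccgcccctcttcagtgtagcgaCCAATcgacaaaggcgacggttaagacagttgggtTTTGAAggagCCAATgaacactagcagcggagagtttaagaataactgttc
Cdkn3 (GRCr8 chr15:22502236-22502385, plus strand): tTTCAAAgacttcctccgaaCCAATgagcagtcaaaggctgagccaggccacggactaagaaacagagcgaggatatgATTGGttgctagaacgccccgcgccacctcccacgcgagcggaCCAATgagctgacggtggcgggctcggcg
Spc25 (GRCr8 chr3:74396719-74396868, minus strand): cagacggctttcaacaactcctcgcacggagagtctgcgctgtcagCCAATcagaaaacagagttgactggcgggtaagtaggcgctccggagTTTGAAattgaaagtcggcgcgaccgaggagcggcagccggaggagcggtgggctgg
Cdkn3, a phosphatase of the cell cycle, went from 4.64 and 5.97 FPKM to 0.293 and 0.476 FPKM, and Spc25, a kinetochore subunit, from 2.76 and 3.37 FPKM to 0.369 and 0.305 FPKM. The matches describe these sequences and no binding was measured.

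Genes of progenitors and immature neurons fell in part. Of 30 tested, 12 fell (40.0%, against 5.99% of all transcripts) and none rose, with a median of -0.87. Mdk, the growth factor midkine (rn4 chr3:76309988-76311345), was at 45.4 and 87.1 FPKM at P5 and at 4.36 and 3.77 FPKM at P20 (log2 change -3.66 ± 0.26 SE, limma adjusted p = 0.00116). Tubb2b, a tubulin of growing neurites, went from 11.8 and 8.69 FPKM to 0.553 and 0.284 FPKM (-2.98 ± 0.17, limma adjusted p = 0.000971), and Dcx, doublecortin, from 6.63 and 7.95 FPKM to 0.882 and 0.715 FPKM. Neither gene was higher at P5 mid-night by more than 2-fold. Tmsb10, an actin-binding thymosin, went from 154 and 83.2 FPKM to 18.9 and 16.2 FPKM, Pcp4 from 49.7 and 60.4 FPKM to 12.6 and 17.8 FPKM, and Vim, vimentin, from 93.8 and 109 FPKM to 50.5 and 43.7 FPKM. Ptn, pleiotrophin, the other member of the midkine family, was at 364 and 300 FPKM at P5 and 287 and 271 FPKM at P20 and did not pass. Without P5 mid-day 7 members fell, without P20 mid-day 5, without P5 mid-night 4 and without P20 mid-night 3. Mdk and Tubb2b passed in all 19 alternatives.

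Fetal growth genes were among the largest falls. Of 19 imprinted, insulin-like growth factor and oncofetal genes, 6 fell (31.58%, against 5.99% of all transcripts) and none rose, with a median of -0.37. H19, an imprinted non-coding RNA (rn4 chr1:202822924-202825601), was at 277 and 233 FPKM at E21, at 23.4 and 41.1 FPKM at P5 and at 2.27 and 1.63 FPKM at P20 (log2 change -3.45 ± 0.27 SE, limma adjusted p = 0.00152). Igf2, the growth factor of the same imprinted domain, went from 72.1 and 132 FPKM at P5 to 21.2 and 17.0 FPKM, and Cdkn1c, an imprinted inhibitor of the cell cycle, from 15.4 and 26.7 FPKM to 3.21 and 1.47 FPKM. Igf2 and Cdkn1c each have 3 transcripts, of which 1 is given. Igfbp2 went from 26.2 and 73.9 FPKM to 3.98 and 3.82 FPKM, and Igf1 from 12.1 and 17.1 FPKM to 2.74 and 3.88 FPKM. The receptors did not pass: Igf2r was at 9.14 and 10.2 FPKM at P5 and 7.72 and 6.75 FPKM at P20, and Igf1r at 10.8 and 16.4 FPKM and then 4.42 and 30.7 FPKM. Without P5 mid-night or without P20 mid-night 1 member fell, against 6 without P5 mid-day and 5 without P20 mid-day. H19 passed in all 19 alternatives. Igf2 and Igfbp2 are also in the list of leptomeninges and fibroblast markers.

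Many matrix genes fell. Of 47 collagens, laminins and other matrix genes tested, 25 fell (53.19%, against 5.99% of all transcripts) and 1, Dpt, rose. Their median was -1.09. Postn, periostin (rn4 chr2:143537098-143568341), went from 66.7 and 59.5 FPKM to 10.1 and 11.2 FPKM (log2 change -2.46 ± 0.18 SE, limma adjusted p = 0.00116). Col3a1, a fibrillar collagen, went from 140 and 173 FPKM to 47.7 and 42.5 FPKM, and Col1a1 from 82.8 and 120 FPKM to 28.0 and 22.7 FPKM. Serpinh1, the chaperone of collagen folding, went from 49.5 and 76.5 FPKM to 24.2 and 22.6 FPKM. Sparc, a collagen-binding glycoprotein, was at 222 and 299 FPKM at P5 and 157 and 148 FPKM at P20 and did not pass, and Eln, elastin, was at 17.2 and 17.8 FPKM and then 17.8 and 16.1 FPKM.

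Markers of leptomeninges and fibroblasts, which share Col1a1, Col3a1, Dcn, Ogn and Lum with the matrix list, moved alongside. Of 19 tested 9 fell (47.37%, against 5.99% of all transcripts) and none rose. The list summed to 498.1 and 768.8 FPKM at P5 and 233.3 and 195.1 FPKM at P20. Crabp2 went from 6.09 and 7.77 FPKM to 1.44 and 0.816 FPKM. Pdgfra, a receptor of fibroblasts and oligodendrocyte precursors, was at 6.67 and 11.2 FPKM at P5 and 13.1 and 13.1 FPKM at P20 and did not pass. Without P5 mid-night or without P20 mid-night none of the 19 passed. The part of these cells in the matrix falls was not tested. Without P5 mid-night or without P20 mid-night 1 matrix gene fell, against 14 without P5 mid-day and 9 without P20 mid-day, and the median stayed between -0.86 and -1.25. Postn passed in all 19 alternatives, while Col3a1 lost its call without any 1 of the 4 P5 and P20 libraries.

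Genes of axon guidance, Wnt signalling and cholesterol synthesis fell in smaller numbers. Of 39 guidance and adhesion genes 9 fell (23.08%, against 5.99% of all transcripts) and none rose, with a median of -0.50. Sema5a, a semaphorin, went from 3.88 and 5.70 FPKM to 0.669 and 0.718 FPKM, and Cntn1, contactin, from 51.3 and 67.6 FPKM to 28.9 and 27.5 FPKM. Of 36 Wnt pathway genes 4 fell (11.11%), with a median of -0.38. Among the 4 was Sostdc1, which is also a choroid plexus marker. Wnt5a went from 2.83 and 4.16 FPKM to 1.21 and 0.867 FPKM and Fzd1, a receptor, from 3.10 and 4.71 FPKM to 1.26 and 1.09 FPKM, while Ctnnb1, the effector beta-catenin, was at 116 and 110 FPKM and then 97.0 and 97.6 FPKM. Of 22 cholesterol genes 6 fell (27.27%), with a median of -0.39. Cyp51, a sterol demethylase, went from 7.98 and 9.14 FPKM to 3.66 and 4.35 FPKM. None of these 19 calls was made without P5 mid-night or without P20 mid-night, and with quantile normalization 3 guidance, 3 Wnt and 0 cholesterol genes fell.

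Among the other largest falls with P5 libraries within 2-fold were genes outside these lists. Crabp1, a retinoic acid binding protein, went from 10.0 and 8.63 FPKM to 0.292 and 0.394 FPKM (log2 change -2.94 ± 0.18 SE, limma adjusted p = 0.000971). Rbm3, a cold-inducible RNA-binding protein, went from 112 and 84.1 FPKM to 19.2 and 9.36 FPKM (-2.76 ± 0.22, limma adjusted p = 0.00161). Pmel, a melanosome protein, went from 5.15 and 6.05 FPKM to 0.0839 and 0.0630 FPKM, and Nt5dc2 from 15.5 and 26.3 FPKM to 1.41 and 1.88 FPKM. Krt15, a keratin, went from 42.1 and 32.8 FPKM to 6.29 and 5.35 FPKM. Tnnc2, troponin C of fast skeletal muscle, went from 9.83 and 5.31 FPKM to 0.0848 and 0.202 FPKM. It was 1 of 2 muscle markers tested, and the list summed to 12.7 and 7.961 FPKM at P5 and 1.348 and 1.915 FPKM at P20. Tnnc2 reached 1 FPKM in the P5 libraries only. It passed the filter through them, so its direction is no support for a fall. Nnat, neuronatin, has 2 transcripts, of which 1 went from 15.2 and 8.24 FPKM to 2.22 and 0.412 FPKM (limma adjusted p = 0.0316), a call lost without any 1 of the 4 libraries. The other transcript was lower in both P20 libraries and did not pass.

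**Figure D3:**
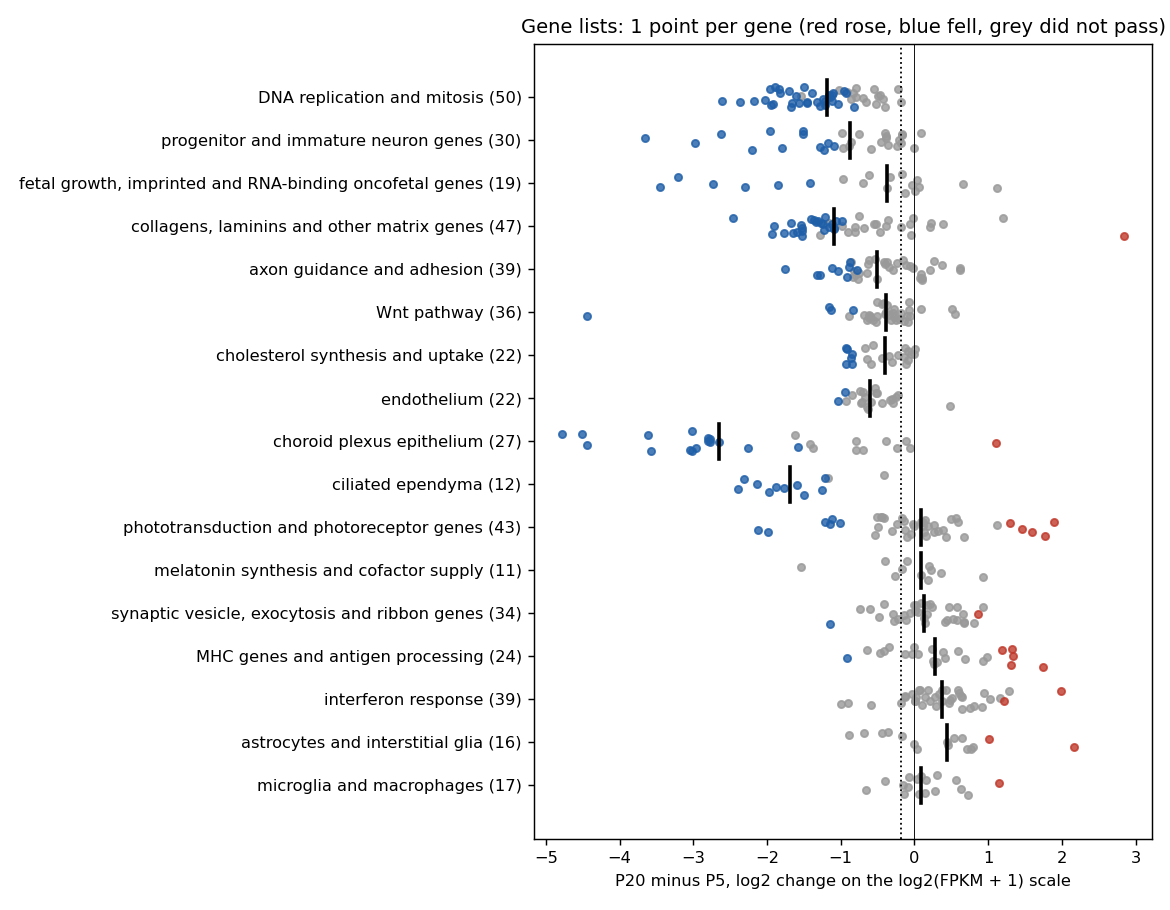
Log2 change from P5 to P20 of each gene tested in the lists named at the left, 1 point per gene, with the list's median as a black bar and the median of all transcripts (-0.18) as a dotted line. The lists of cell division, matrix, choroid plexus and ciliated ependyma lie to the left with medians of -1.18, -1.09, -2.65 and -1.68, and the melatonin and phototransduction lists lie around 0.

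The largest falls of all were genes of choroid plexus epithelium. Of 27 of its markers tested, 16 fell (59.26%, against 5.99% of all transcripts) and 1 rose, with a median of -2.65. Ttr, transthyretin, the main protein secreted by this epithelium and a carrier of thyroid hormone, was at 2889 and 17320 FPKM at P5 and at 482 and 686 FPKM at P20 (log2 change -3.62 ± 0.62 SE, limma adjusted p = 0.0166). At E21 it had been at 1045 and 1299 FPKM and at P40 at 532 and 773 FPKM. Mfrp, a frizzled-related membrane protein, went from 18.5 and 74.2 FPKM to 0.0270 and 0.902 FPKM and had the largest fall (-4.78 ± 0.49, limma adjusted p = 0.0034). Htr2c, the serotonin receptor of this epithelium, went from 14.1 and 56.4 FPKM to 0.0514 and 0.603 FPKM, and Sostdc1, a secreted Wnt and BMP antagonist, from 14.8 and 65.7 FPKM to 0.203 and 0.849 FPKM. In these genes P5 mid-night was several-fold above P5 mid-day, and P5 mid-day was above both P20 libraries.

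Enpp2, the enzyme autotaxin, went from 130 and 497 FPKM to 26.9 and 47.0 FPKM, and Aqp1, a water channel, from 44.5 and 101 FPKM to 8.26 and 6.62 FPKM. Slc5a5, an iodide transporter, was listed at 0 in both P20 libraries after 2.52 and 12.4 FPKM at P5. Not all markers followed. F5, coagulation factor V, rose from 6.03 and 17.3 FPKM to 20.0 and 27.6 FPKM (limma adjusted p = 0.0411), a call lost without any 1 of the 4 libraries, and Kcne2, a potassium channel subunit, was at 51.0 and 59.0 FPKM at P5 and at 57.2 and 30.6 FPKM at P20. By day the list median was -1.73 and by night -3.37. Without P5 mid-night 7 members fell, with a median of -1.84, and without P20 mid-night 1 fell, with a median of -2.21. Without P20 mid-day 12 fell and without P5 mid-day 19. Htr2c passed in all 19 alternatives, and Ttr lost its call without P5 mid-night, P20 mid-day or P20 mid-night.

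Markers of ciliated ependyma, the lining of the ventricles, moved the same way at lower levels. Of 12 tested 10 fell (83.33%, against 5.99% of all transcripts) and none rose, with a median of -1.68. Rsph9, a radial spoke protein of cilia, went from 2.76 and 8.58 FPKM to 0.490 and 0.257 FPKM, and Mlf1 from 13.7 and 14.6 FPKM to 2.84 and 1.42 FPKM. The list summed to 44.81 and 101.9 FPKM at P5 and to 14.27 and 10.53 FPKM at P20. Without P5 mid-night or without P20 mid-night none passed. Of the 597 transcripts that fell, 67 were at least 2-fold higher in P5 mid-night than in P5 mid-day and 1 at least 2-fold lower. Of all 9960 transcripts tested the counts were 154 and 30, so higher values at P5 mid-night were more frequent among the falls. The other 529 falls had P5 libraries within 2-fold of each other, a smaller share than among all transcripts. The part of choroid plexus and ependymal RNA in the other falls was not tested.

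**Figure D4:**
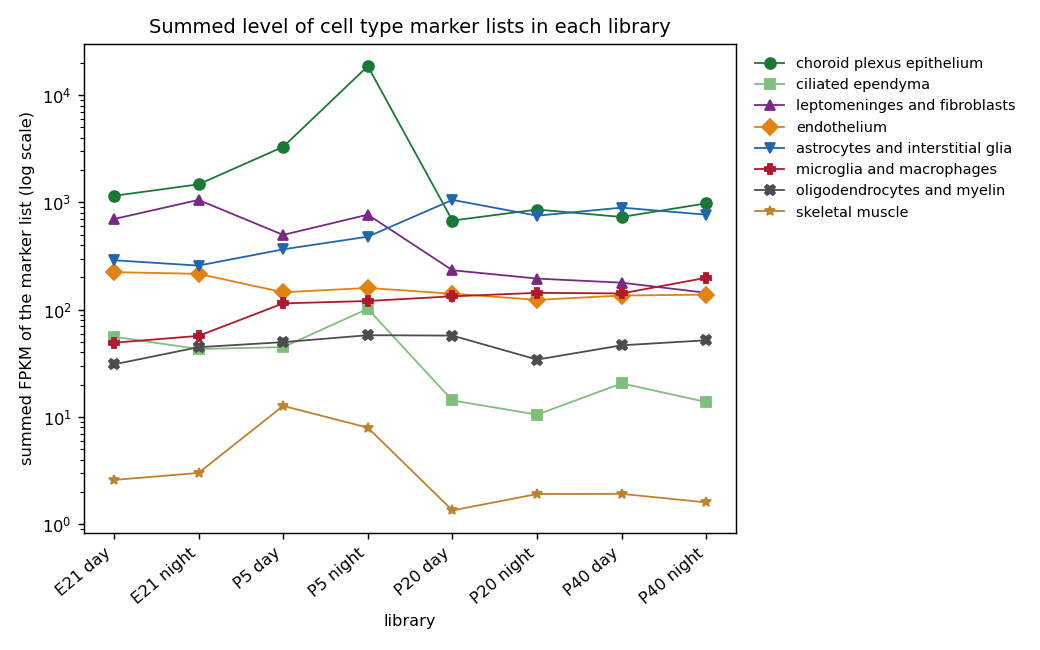
Summed FPKM of the marker lists of other cell types in each library, on a log axis. Choroid plexus markers peak at 18610 FPKM in the P5 mid-night library and lie at 677.5 and 858.7 FPKM at P20, while microglia and endothelium markers vary less.

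Vascular markers were mostly lower at P20, and few passed. Of 22 endothelial genes tested 2 fell (9.091%, against 5.99% of all transcripts), with a median of -0.61. Both P20 libraries lay below both P5 libraries for 20 of the 22, against 41.4% of all, and their sum was 145.4 and 159.5 FPKM at P5 and 141.0 and 123.5 FPKM at P20. Cdh5, the cadherin of endothelial junctions, went from 6.71 and 8.20 FPKM to 3.31 and 3.46 FPKM, and Tie1, a receptor kinase, from 7.17 and 7.24 FPKM to 3.40 and 2.65 FPKM. Of 14 smooth muscle and pericyte genes 1 rose (7.143%, against 1.02% of all transcripts) and 3 fell (21.43%). Of 10 oligodendrocyte genes 2 fell (20.0%). Among them was Gpr17, a receptor of immature oligodendrocytes, from 1.10 and 1.50 FPKM to 0 and 0.0519 FPKM. The other was Sox10, from 1.59 and 1.72 FPKM to 0.442 and 0.416 FPKM. Gpr17 and Sox10 reached 1 FPKM in the P5 libraries only. They passed the filter through these libraries, so their direction is no support for a fall. Of 4 Schwann cell genes 3 fell, Sox10 again among them. The remaining gene, Cdh19, rose from 0.145 and 0.276 FPKM to 1.92 and 1.67 FPKM. None of 10 erythroid genes or 7 mast cell genes passed. Without any 1 of the 4 libraries no endothelial or Schwann cell gene passed. No smooth muscle or oligodendrocyte gene passed without P5 mid-night or without P20 mid-night.

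For genes known to be higher at night in the adult gland, the median change had opposite signs at mid-day and at mid-night. The 26 such genes had median changes of -1.06 by day and 1.35 by night, against -0.07 and -0.31 for all transcripts. In the fit that averages both times the median was 0.07 (from -0.69 without P5 mid-night to 0.74 without P5 mid-day), and 1 gene, Id1, an inhibitor of DNA-binding factors, passed and fell (20.4 and 28.8 FPKM at P5, 8.44 and 9.43 FPKM at P20, limma adjusted p = 0.0436), a call lost without any 1 of the 4 libraries. Aanat (rn4 chr10:106709370-106713683) had 153 and 225 FPKM at P5 and 6.21 and 572 FPKM at P20. Its log2 change of -4.42 by day and 1.34 by night has no test at either time. The mid-day level lay below that of P5 and the mid-night level lay above it.

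Several genes had the same pattern. Atp7b, a copper transporter with a pineal night-specific transcript, was at 10.3 and 27.4 FPKM at P5 and at 1.41 and 124 FPKM at P20. Fcer1a, the alpha chain of the IgE receptor, which the pinealocyte expresses, was at 52.7 and 63.9 FPKM at P5 and 7.57 and 166 FPKM at P20. Sik1, a kinase induced by cyclic AMP, was at 6.33 and 6.08 FPKM at P5 and 1.07 and 33.7 FPKM at P20. In all of them P20 mid-day was the lowest of the 4 libraries and P20 mid-night the highest. Dusp1, a phosphatase of MAP kinases, was at 9.41 and 9.39 FPKM at P5 and 2.48 and 47.4 FPKM at P20, and Mat2a, which makes the methyl donor used by Asmt, at 25.4 and 18.5 FPKM and then 9.22 and 38.8 FPKM. Hhip, an inhibitor of hedgehog ligands, was at 17.3 and 29.3 FPKM at P5 and 1.49 and 53.5 FPKM at P20.

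In other night genes P20 mid-night stood highest. Slc15a1, a peptide transporter, was listed at 0 and 1.50 FPKM at P5 and at 1.61 and 366 FPKM at P20, and at 0.216 and 736 FPKM at P40. These are the values of 1 of its 2 transcripts. Crem, a cyclic AMP responsive factor, was at 0.916 and 1.74 FPKM at P5 and 0.468 and 36.4 FPKM at P20 for 1 of its 2 transcripts, and at 6.63 and 11.9 FPKM and then 3.52 and 42.6 FPKM for the other. Dio2, the deiodinase that activates thyroid hormone, was at 0.325 and 0.573 FPKM at P5 and at 0.316 and 4.87 FPKM at P20. In each of these transcripts P20 mid-night was the highest of the 4 libraries, and P20 mid-day the lowest except in Slc15a1. None of them passed the test between ages, which takes 1 night effect for all ages. With separate night effects for the younger and older ages, 2 genes of the night list rose and 3 fell, against 0 and 1.

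The opposite pattern, a change by night below that by day, was seen in Pdc, phosducin, a regulator of transducin, which was at 120 and 89.8 FPKM at P5 and at 291 and 46.1 FPKM at P20. St8sia3, a sialyltransferase, was at 0.770 and 0.661 FPKM at P5 and 13.1 and 0.888 FPKM at P20, and Hs3st2, a heparan sulfate sulfotransferase, at 13.2 and 11.3 FPKM and then 11.1 and 0.717 FPKM. For these genes P20 mid-night was lower than P20 mid-day by several-fold. Hspb1, a small heat shock protein, was at 4.84 and 11.1 FPKM at P5 and 38.7 and 10.6 FPKM at P20, and at P40 the order was the other way, with 18.9 and 33.4 FPKM. Ezr, ezrin, was at 12.7 and 43.0 FPKM at P5 and 6.82 and 2.59 FPKM at P20, where the P5 mid-night library that held the highest choroid plexus markers was also the highest. Over all transcripts, 154 were at least 2-fold higher at P5 mid-night than at P5 mid-day and 30 at least 2-fold lower, and at P20 the counts were 243 and 271. None of the 17 clock genes tested passed between the ages.

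**Figure D5:**
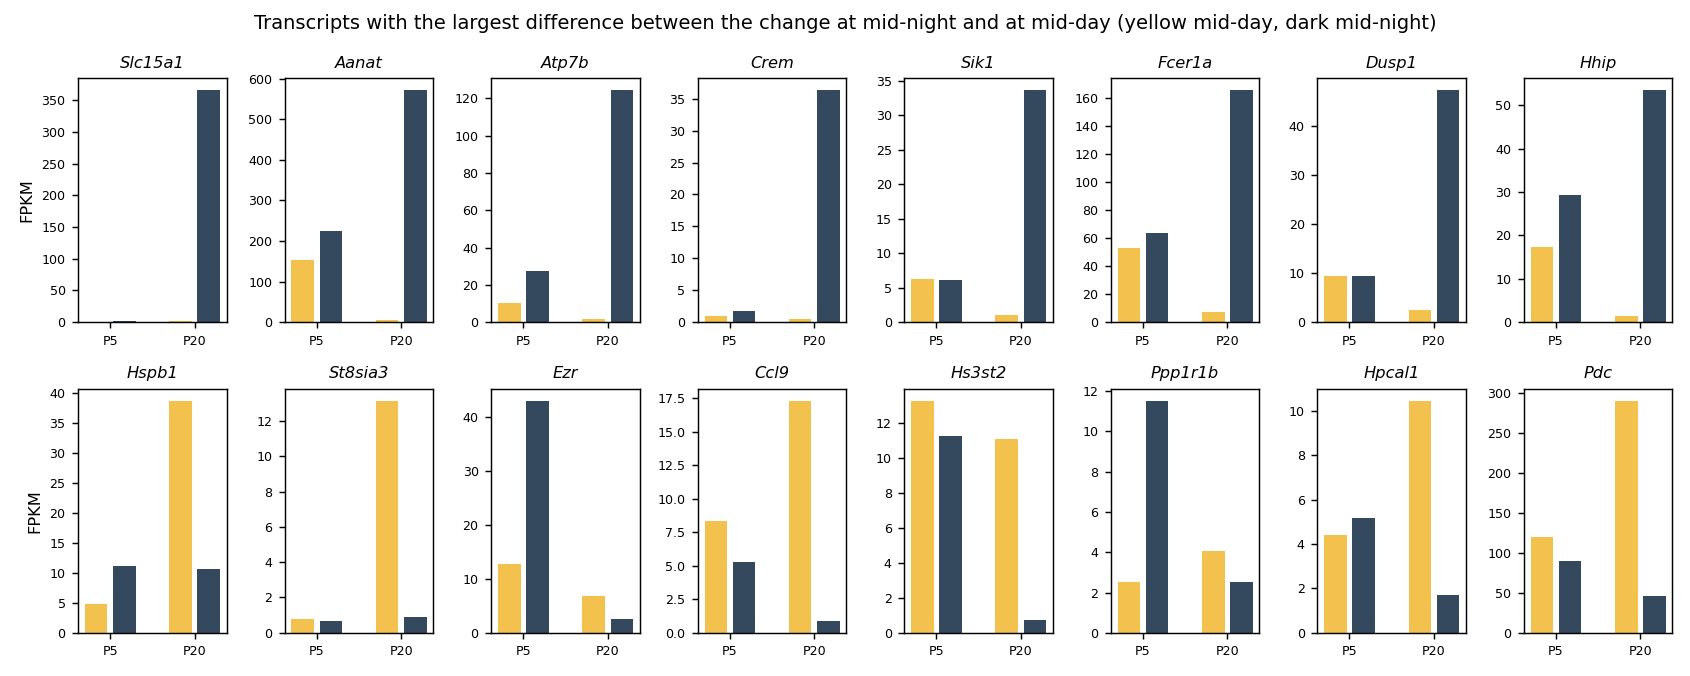
FPKM in the P5 and P20 libraries (yellow mid-day, dark mid-night) of the 8 genes with the highest (upper row) and the 8 with the lowest (lower row) difference between the change at mid-night and at mid-day, each panel with its own axis from 0. Aanat, Atp7b, Crem, Sik1, Fcer1a, Dusp1 and Hhip have their lowest bar at P20 mid-day and their highest at P20 mid-night.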

How the data were processed

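Total RNA of pooled pineal glands was enriched for polyadenylated RNA and sequenced as paired ends, per the labels' protocols. Per the submitters' processing notes the authors used TopHat 1.3.1, Cufflinks 1.2.0 and build rn4. The deposited values are FPKM for each RefSeq transcript, and filters or further scaling are not given in the sources used here. The values given per library were identical to those of the series table. Read totals were not used, so depth is known only relative to the deepest library and no counting interval is given.

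Values were analysed as log2(FPKM + 1), pseudocount 1, keeping transcripts that reached 1 FPKM in 2 or more libraries. The fit used limma 3.58.1 (R 4.3.3) with a trended, two-sided empirical Bayes test on all 8 libraries, with 4 ages and time of day as block (3 residual degrees of freedom, prior 4.816), checked on simulated data. The contrast was P20 minus P5, Benjamini-Hochberg over 9960 transcripts, threshold 0.05. A gene with several transcripts was represented in a list by the one of highest mean FPKM over the 8 libraries. Of 1034 entries in 33 lists, 760 were tested. Some genes are in more than 1 list, and lists are described by counts and medians. Named were the 15 largest changes each way among transcripts past the test, the 15 largest falls with P5 libraries within 2-fold, up to 4 genes a list each way, all melatonin genes, and the 8 highest and 8 lowest differences between the changes at mid-night and at mid-day. Some genes are not reported here. Other members were named as examples after their values were seen. Members, lists and rules were chosen with earlier results of these data known. Locations are those deposited by the authors with the values, and promoters are from RefSeq, build GRCr8, matched by gene ID. Alternatives were pseudocounts, filters, scalings, terms of the fit and leaving out each library in turn.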

Additional observations from a re-analysis of the deposited data

Results flagged for a closer look

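Among the named genes, 7 differed between P5 and P20 by at least 2-fold in opposite directions at mid-day and at mid-night, and other named genes did so by less. Over all transcripts 13 were at least 2-fold lower by day and at least 2-fold higher by night, and 7 the other way. These differences rest on 1 library for each age and time and were not tested. The change at mid-night minus the change at mid-day, in log2(FPKM + 1), was 5.76 for Aanat, 4.38 for Atp7b, 4.12 for Sik1, 4.01 for Fcer1a, 3.80 for Dusp1 and 2.40 for Mat2a, all lower at mid-day and higher at mid-night at P20. For Hpcal1, which encodes a calcium sensor of the hippocalcin family, it was -2.28, with 4.41 and 5.17 FPKM at P5 and 10.5 and 1.69 FPKM at P20.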

How the results depend on the processing

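No paired analysis of animals was possible because each age and time is 1 pooled library, and time of day served as the block. Without the block 619 transcripts passed (89 rose, 530 fell). Of 699 transcripts past the test, the count was 397 with a pseudocount of 5, 373 with no filter, 372 with a filter at 5 FPKM, 1090 with only the 4 P5 and P20 libraries, 1258 with separate night effects for the younger and older ages, and 50 to 725 when a library was left out. Those that rose numbered 59 with no filter, 219 with quantile normalization, 173 with median centring, 201 with the 4 libraries, 209 with separate night effects and 12 to 112 without a library. Those that fell numbered 321 with a pseudocount of 5, 314 with no filter, 303 with a filter at 5 FPKM, 313 with quantile normalization, 325 with median centring, 1049 with separate night effects and 30 to 613 without a library. The cause of these shifts was not tested. With quantile normalization 41.17% and with median centring 34.74% of the transcripts past the test rose, against 14.59%. At a single time, pseudocounts of 0.1 and 5 gave 360 and 59 transcripts at least 2-fold higher at mid-day, 905 and 94 lower, 314 and 84 higher at mid-night, and 1877 and 223 lower. At mid-night 405 were higher with quantile normalization and 423 with median centring, and 457, 453 and (filter at 5 FPKM) 597 were lower. Of the lists, cell-cycle genes that fell numbered 17 with a pseudocount of 5 and 5 to 34 without a library, immature neuron genes 6 with no filter and 3 to 14, matrix genes 16 with a pseudocount of 5, 12 with no filter and 1 to 26, choroid plexus genes 1 to 19, and ciliated ependyma genes 4 with a pseudocount of 5, 4 with no filter, 1 with a filter at 5 FPKM and 0 to 11. Of 109 named genes past the test none changed direction, which was unlikely from the start because their groups did not overlap. 87 lost their call without at least 1 library (77 when P5 mid-night was left out, 83 for P20 mid-night, 44 for P5 mid-day and 56 for P20 mid-day) and 51 in another setting. Changes of genes that did not pass reversed sign: without a library, Tph1 ran from -0.026 to 0.20, Ddc from -0.25 to 0.65, Aanat from -3.53 to 0.46, Gch1 from -0.30 to 0.68, Spr from -0.51 to 0.30 and Mat2a from -1.07 to 0.73. Spr was at 0.16 with quantile normalization and 0.10 with median centring, and Mat2a at 0.037 with median centring. By the rough estimate of depth, low values are limited most in the P20 mid-day library.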
